A study of Mus musculus with 8 samples.

Results

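The interferon regulatory factors (IRFs) were followed through 8 libraries of naive CD4 T cell RNA, by reading every row of the deposited normalized expression table whose symbol was Irf1, Irf2, Irf3, Irf4, Irf5, Irf7, Irf8 or Irf9. All 8 members named by that rule had a row, among 16418 genes in the table, and no member was at 0 reads in any library. The cells were sorted from mouse spleen and lymph node on CD3 and CD4 and a naive surface marker, without CD25 and with CD44 low or absent; the extraction protocol names splenic cells. All animals had the genotype Satb1fl/fl x CD4-CreERT2wt/+, so the controls carried the floxed Satb1 alleles and the tamoxifen-inducible Cre as well. The Cre is driven by CD4 sequences. The 4 libraries labelled KO (Sample_2907_KO, Sample_2908_KO, Sample_2909_KO and Sample_2910_KO) came from tamoxifen-treated mice and the 4 labelled WT (Sample_2911_WT, Sample_2913_WT, Sample_2914_WT and Sample_2915_WT) from mice without tamoxifen. Drug treatment and the intended loss of Satb1 therefore cannot be told apart. The labels give no age, and they do not say whether each library is a separate animal, and all p-values therefore reflect only the spread between libraries, which may be technical. In bulk RNA, a change in the share of a cell type and a change in RNA per cell cannot be told apart.

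IRFs are transcription factors that share a DNA-binding domain contacting GAAA repeats, such as those in the interferon-stimulated response element (ISRE). IRF3 is made constitutively and, with IRF7, is activated by kinases downstream of nucleic acid sensors to switch on interferon genes. Interferon receptors signal through STAT proteins, and STAT2 joins IRF9 in the ISGF3 complex, and the genes for IRF7 and IRF9 are themselves interferon targets. IRF1 is an activator induced by interferon gamma, and IRF2 competes with it on DNA. IRF4 and IRF8 act with partner factors in lymphocytes and myeloid cells. In T cells IRF4 is induced through the antigen receptor, and IRF5 is known mainly from myeloid and B cells.

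Sequences just upstream of a start site are shown for 6 members: the 3 members whose window held a searched motif, and the 3 whose RNA rose. Each is the 250 bases before a RefSeq start site on GRCm38.p6, written 5′ to 3′, with capitals marking 2 motifs searched on both strands. One is TTCNNNGAA, the gamma-activated site (GAS) bound by STAT dimers, which reads the same on both strands. The other is a pair of IRF half-sites, GAAA followed after 2 bases of any kind by another GAAA, read as TTTC pairs on the other strand. Capitals in Irf1 and Irf8 are GAS matches, and in Irf2 the first run is the GAAA pair and the second a GAS match.
Irf1, chr11:53769764-53770013, plus strand: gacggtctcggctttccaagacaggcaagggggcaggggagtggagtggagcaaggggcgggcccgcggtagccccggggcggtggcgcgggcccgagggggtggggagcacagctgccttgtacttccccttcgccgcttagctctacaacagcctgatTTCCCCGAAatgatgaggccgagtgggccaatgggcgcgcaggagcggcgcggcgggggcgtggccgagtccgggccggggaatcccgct
Irf2, chr8:46739495-46739744, plus strand: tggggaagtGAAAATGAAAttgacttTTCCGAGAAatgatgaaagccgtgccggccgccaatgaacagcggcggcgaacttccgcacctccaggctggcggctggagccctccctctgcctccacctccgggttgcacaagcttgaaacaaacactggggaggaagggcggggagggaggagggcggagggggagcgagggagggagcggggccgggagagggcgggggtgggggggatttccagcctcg
Irf8, chr8:120736108-120736357, plus strand: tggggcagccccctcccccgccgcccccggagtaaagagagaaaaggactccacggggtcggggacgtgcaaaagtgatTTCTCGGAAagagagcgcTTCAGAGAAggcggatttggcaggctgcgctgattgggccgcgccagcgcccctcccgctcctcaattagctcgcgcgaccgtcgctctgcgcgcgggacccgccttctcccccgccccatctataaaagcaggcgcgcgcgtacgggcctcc
Irf4, chr13:30748983-30749232, plus strand: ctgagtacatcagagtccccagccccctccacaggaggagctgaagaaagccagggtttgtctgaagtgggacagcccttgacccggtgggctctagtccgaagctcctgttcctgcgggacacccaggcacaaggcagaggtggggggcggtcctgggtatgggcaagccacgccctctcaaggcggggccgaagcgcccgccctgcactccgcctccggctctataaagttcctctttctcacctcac
Irf7, chr7:141266425-141266674, minus strand: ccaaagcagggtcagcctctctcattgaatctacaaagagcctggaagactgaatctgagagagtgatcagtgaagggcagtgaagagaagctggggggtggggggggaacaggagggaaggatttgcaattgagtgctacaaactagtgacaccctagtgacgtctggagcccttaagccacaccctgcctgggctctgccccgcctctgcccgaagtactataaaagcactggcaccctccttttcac
Irf9, chr14:55603735-55603984, plus strand: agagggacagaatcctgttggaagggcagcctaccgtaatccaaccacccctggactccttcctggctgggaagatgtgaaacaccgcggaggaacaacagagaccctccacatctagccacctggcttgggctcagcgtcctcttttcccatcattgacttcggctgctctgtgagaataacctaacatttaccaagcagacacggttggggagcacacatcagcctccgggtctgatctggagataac

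Over all members, 11 windows were available, as Irf1, Irf8 and Irf9 each had a second start site. A GAS match lay in 3 of them, the ones printed for Irf1, Irf2 and Irf8, and in 7.02% of 32851 mouse windows of the same length. The Irf1 match spans 90 to 82 bases before the start. The GAAA pair lay in the Irf2 window alone among the 11, at 241 to 232 bases before the start, and in 2.98% of all windows. The windows of Irf4, Irf7 and Irf9, the 3 members whose RNA rose, held neither string of letters. A match is a description of letters, and its absence says nothing of sites outside the window. Both Irf9 windows, from 55603735 and from 55604329, lie inside the annotated gene. Sequence before the annotated Irf9 start at 55603571 was therefore not searched. The printed windows of Irf2, Irf4 and Irf7 run partly into their annotated genes.

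The targeted gene stood at 855, 1032, 839.6 and 913 CPM in Sample_2907_KO to Sample_2910_KO and at 987, 1015, 1046 and 1083 CPM in Sample_2911_WT, Sample_2913_WT, Sample_2914_WT and Sample_2915_WT (CPM, read counts relative to library size after TMM scaling, a normalization between libraries). The Satb1 log2 fold change was -0.18 (SE 0.059, edgeR quasi-likelihood adjusted p = 0.0582), and the KO and WT ranges overlapped, so "KO" below is the submitters' label and says nothing of remaining Satb1 RNA. Where in the transcript these reads lie is not known from gene totals. Library totals ran from 7544075 to 9253620 reads in KO and from 5227758 to 21998174 in WT, with Sample_2914_WT the deepest. Cd3e, Cd3d, Cd4, Ccr7, Tcf7, Lef1 and Il7r, 7 markers of naive CD4 T cells, summed to 5097 to 5708 CPM in KO and 5396 to 5808 CPM in WT, although Il7r rose (1339 and 804 CPM) and Tcf7, Ccr7 and Cd4 fell (edgeR adjusted p = 0.0245, 0.000291, 0.0221 and 0.0242). Of the CD8 T cell markers, Cd8a had 10 KO reads and 18 WT reads and Cd8b1 413 and 725.

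Of the 8 members, 3 rose in KO, 0 fell and 5 did not pass the threshold (edgeR adjusted p under 0.05 over 11772 tested genes). Of all tested genes 6.39% were called, 3.98% as higher and 2.41% as lower in KO. The members that rose were Irf4 (1.87-fold), Irf7 (1.81-fold) and Irf9 (1.34-fold). KO and WT libraries did not overlap for these 3 members and overlapped for the other 5, where 11.1% of all tested genes had no overlap. The median log2 fold change of the 8 members was 0.25, beside 0.00 over all tested genes. All 8 had enough reads to be tested.

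**Figure D1:**
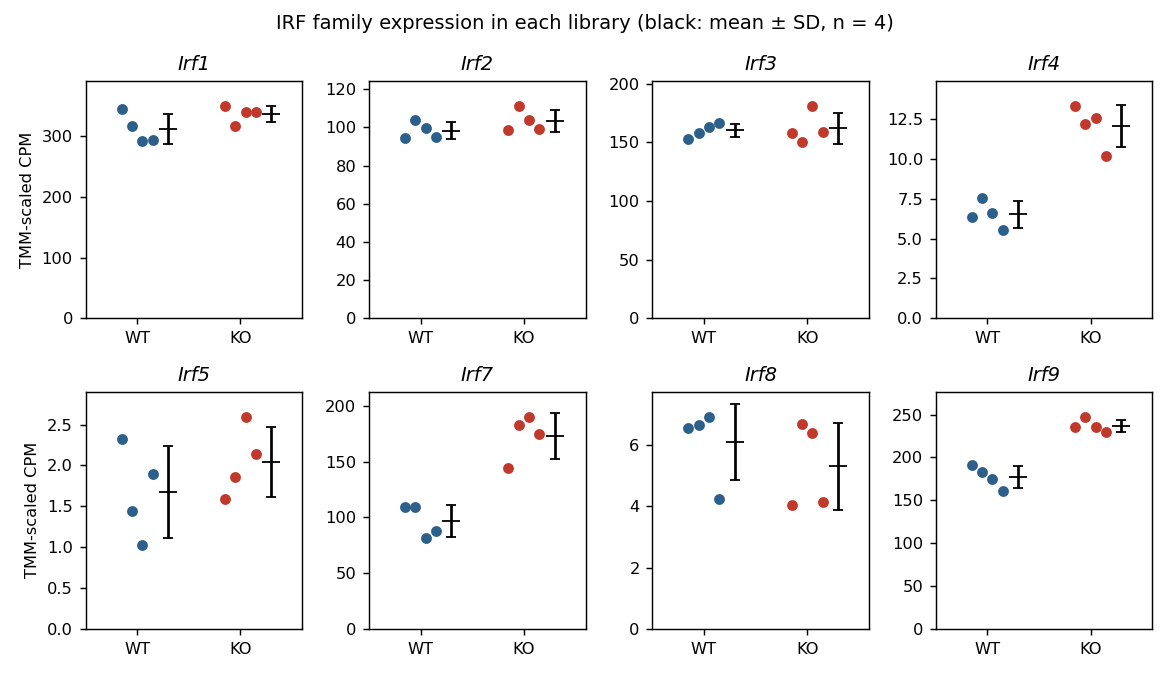
Expression of the 8 members, with TMM-scaled CPM on a linear vertical axis from 0 and WT and KO on the horizontal axis; each point is 1 library and the black bars are mean ± SD (n = 4). The KO points lie above all WT points for Irf4, Irf7 and Irf9 and overlap them for the other members.

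Irf7 encodes the interferon-induced factor that amplifies type I interferon production. It lies on chromosome 7 (GRCm38, 141262706 to 141266481, minus strand, ENSMUSG00000025498.15). It was at 144, 183, 190.0 and 175 CPM in Sample_2907_KO, Sample_2908_KO, Sample_2909_KO and Sample_2910_KO, and at 109, 109, 81.9 and 87.5 CPM in Sample_2911_WT, Sample_2913_WT, Sample_2914_WT and Sample_2915_WT. Even the lowest KO library, Sample_2907_KO, was above the highest WT library. Within WT the 2 deeper libraries, Sample_2914_WT and Sample_2915_WT, were the lower pair. The means were 173 ± 20.1 CPM in KO against 97 ± 14.3 CPM in WT (mean ± SD, 4 libraries each), a log2 fold change of 0.86 (SE 0.12, 95% interval 0.60 to 1.11, edgeR adjusted p = 0.00125). Irf7 shares 45 exonic bases with Phrf1 on the opposite strand, whose log2 fold change was -0.02. With every library thinned to the depth of the shallowest, the log2 fold change was 0.84. Only 1.28% of tested genes had a higher log2 fold change than Irf7.

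Irf9 encodes the DNA-binding subunit of ISGF3 and lies on chromosome 14 (55603571 to 55610030, plus strand, ENSMUSG00000002325.15). Irf9 read 236, 247, 235 and 229.7 CPM across KO and 191, 183, 175 and 161 CPM across WT, in the order given above. The groups were apart by more than their own spread: 237 ± 7.4 CPM in KO against 178 ± 12.8 CPM in WT (mean ± SD, n = 4). The log2 fold change was 0.42 (SE 0.058, 95% interval 0.30 to 0.54, edgeR adjusted p = 7.35e-06). This was the smallest of the 3 rises and the one with the lowest adjusted p. A higher log2 fold change than that of Irf9 was held by 5.6% of tested genes. Irf9 shares 123 of its 5386 annotated exonic bases with Rnf31, a ubiquitin ligase subunit gene on the same strand, whose log2 fold change was 0.12 (edgeR adjusted p = 0.288).

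Irf4, on chromosome 13 (30749226 to 30766976, plus strand, ENSMUSG00000021356.10), had far fewer reads, 76 to 117 per KO library and 33 to 148 per WT library. It stood at 13.3, 12.2, 12.6 and 10.2 CPM in KO and at 6.37, 7.57, 6.6 and 5.54 CPM in WT. The lowest KO library, Sample_2910_KO, was above the highest WT library, Sample_2913_WT. The means were 12.1 ± 1.35 and 6.52 ± 0.835 CPM (SD, n = 4 each), with a log2 fold change of 0.91 (SE 0.17, 95% interval 0.55 to 1.26, edgeR adjusted p = 0.000647). No annotated gene overlaps Irf4 in this release. Among tested genes 1.16% had a higher log2 fold change.

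IRF4 is also abundant in regulatory T cells, whose lineage factor gene Foxp3 was at 93.4 ± 27.1 CPM in KO against 8.41 ± 1.2 CPM in WT (mean ± SD, n = 4). The summed level of 4 regulatory T cell markers, Foxp3, Il2ra (which encodes CD25, sorted against), Ctla4 and Ikzf2, was 78.5 to 148 CPM in KO and 27.2 to 36.6 CPM in WT. Of these 4 genes Foxp3 was called, and Il2ra, Ctla4 and Ikzf2 had adjusted p of 0.392, 0.847 and 0.194 (edgeR). In Sample_2907_KO, Sample_2908_KO, Sample_2909_KO and Sample_2910_KO the marker sums were 78.5, 123, 148 and 142 CPM. Irf4 stood there at 13.3, 12.2, 12.6 and 10.2 CPM, on 76 to 117 reads per library. Plasma cells also hold much IRF4, and their 4 markers summed to 54.5 to 65.6 CPM in KO and 45.4 to 52.7 CPM in WT. Most of that sum was Xbp1, which many cells express, while the plasma cell marker Sdc1 had 4 KO reads and 0 WT reads and Jchain 30 and 32. The part of regulatory T cells and plasma cells in the Irf4 difference was not tested.

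Irf3, the constitutive partner of Irf7, gave 158, 150.0, 180.5 and 159 CPM in KO and 153, 158, 163 and 166 CPM in WT. The groups overlapped throughout. Its log2 fold change was 0.01 (SE 0.061, 95% interval -0.11 to 0.14, edgeR adjusted p = 0.946), so changes beyond 1.1-fold upward lie outside the interval. Irf3 (chromosome 7, 44997648 to 45002848) shares 88 exonic bases with Bcl2l12 on the opposite strand, which had a log2 fold change of -0.02.

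Irf1 (chromosome 11, 53770014 to 53778374), which shares 135 exonic bases with Gm17334 on the opposite strand, was at 349, 317, 339.7 and 340.4 CPM in KO and 345, 317, 292 and 294 CPM in WT. Sample_2911_WT stood among the KO values. The log2 fold change was 0.11 (SE 0.058, 95% interval -0.01 to 0.23, edgeR adjusted p = 0.31). Its antagonist Irf2 (chromosome 8, 46739732 to 46847458) was at 98.9, 111, 104 and 99.4 CPM in KO and 94.4, 104, 99.7 and 94.8 CPM in WT, with a log2 fold change of 0.07 (SE 0.064, 95% interval -0.06 to 0.21, edgeR adjusted p = 0.603). For both genes the upper end of the interval was below 1.2-fold, at 1.17 and 1.15.

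Irf8 (chromosome 8, 120736358 to 120756694), a lineage factor of dendritic cells and B cells, gave 4.03, 6.69, 6.38 and 4.15 CPM in KO and 6.56, 6.67, 6.91 and 4.24 CPM in WT. KO split into a high and a low pair, and Sample_2915_WT lay with the low one. The log2 fold change was -0.18 (SE 0.23, 95% interval -0.65 to 0.29, edgeR adjusted p = 0.76). Irf5 (chromosome 6, 29526625 to 29541871) was the least read member, with 8 to 24 reads per library. It was at 1.59, 1.86, 2.59 and 2.14 CPM in KO and 2.32, 1.44, 1.03 and 1.9 CPM in WT. Its log2 fold change of 0.38 had a 95% interval of -0.37 to 1.13 (SE 0.37, edgeR adjusted p = 0.654), so at this depth a 2-fold rise was not distinguishable from no change. Irf5 also shares 411 exonic bases, 14.1% of its annotated exonic length, with the opposite-strand gene Tnpo3, and the library kit does not mark strand.

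**Figure D2:**
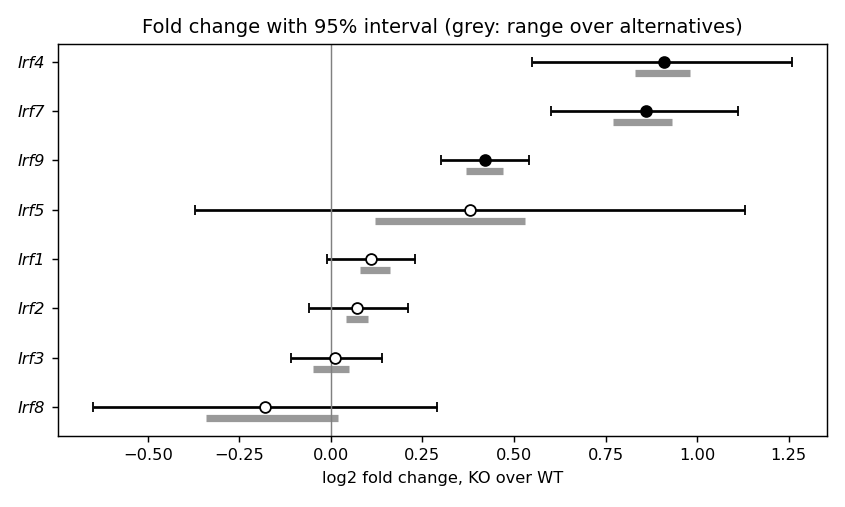
The log2 fold change of KO over WT for each member (horizontal axis) with its 95% interval; filled points passed the edgeR threshold, and grey bars span the alternative analyses. Irf4, Irf7 and Irf9 stay above 0 throughout, and Irf5 and Irf8 have the widest intervals.

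Cells rich in Irf5 and Irf8 were looked for by their markers. The B cell genes Ms4a1 and Pax5 had 3 and 1 reads over the KO libraries and 0 over the WT libraries, which allows up to 0.0671 CPM in pooled WT (the level of 3 reads, for counting error only). Ebf1 had 3 and 2 reads. Cd79a (2.5 and 2.56 CPM), Cd79b (1.48 and 0.906 CPM) and Cd74 (3.07 and 3.31 CPM) were low in both groups and were not called. The list of 7 B cell markers summed to 358 to 416 CPM in KO and 446 to 482 CPM in WT, nearly all of it Ighm (382 ± 22 and 460.4 ± 16.2 CPM). Ighm was called lower in KO (log2 fold change -0.27, edgeR adjusted p = 0.00132), with no overlap between groups. The 7 conventional dendritic cell markers summed to 1.32 to 2.95 CPM in KO and 0.981 to 2.12 CPM in WT, with no marker of the list tested. The 9 myeloid markers summed to 21.1 to 30 CPM in KO, and to 42.3, 13.7, 12.7 and 24.8 CPM in Sample_2911_WT, Sample_2913_WT, Sample_2914_WT and Sample_2915_WT. Sample_2911_WT had both the highest myeloid sum and the highest Irf5 of its group, and Sample_2914_WT the lowest of both. These Irf5 values rest on 12 and 23 reads, and Lyz2 gave 25.3 CPM of the Sample_2911_WT sum. For Irf8, Sample_2914_WT was instead the highest of its group (6.91 CPM). Of the 4 myeloid markers tested, Ly6c2 rose (5.43 and 2.29 CPM, edgeR adjusted p = 0.019), and Lyz2, Itgam and Cd68 were not called. The part of B cells and myeloid cells in the Irf5 and Irf8 values was not tested. Among plasmacytoid dendritic cell markers, which summed to 67.4 to 74.7 CPM in KO and 44.5 to 61.2 CPM in WT, the defining Siglech had 2 reads in KO and 1 in WT, while Bst2, also an interferon-induced gene, was at 58.5 and 38.6 CPM.

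**Figure D3:**
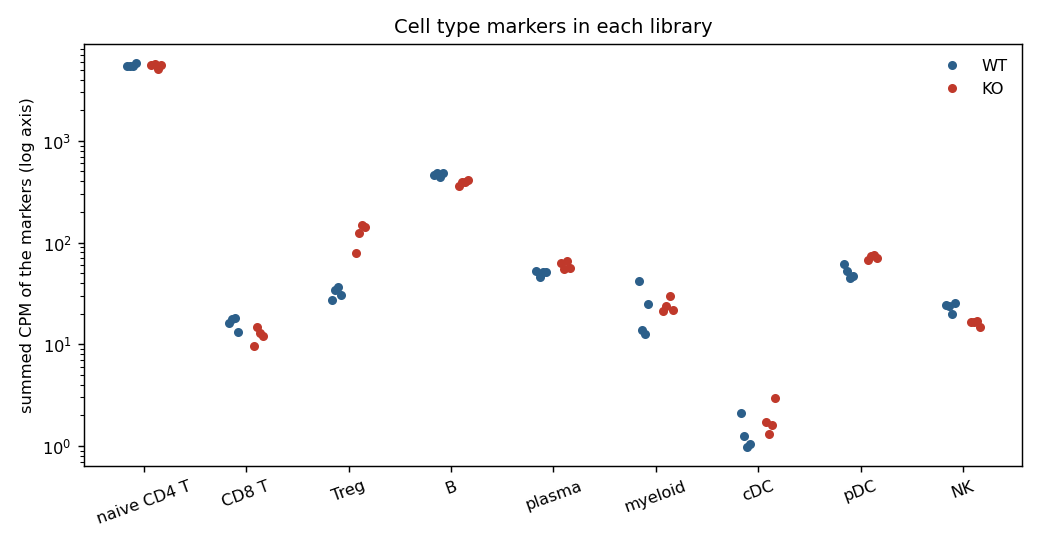
Summed TMM-scaled CPM of each cell type's markers (log vertical axis) in each WT and KO library, 1 point per library (Treg, regulatory T cells; cDC and pDC, conventional and plasmacytoid dendritic cells; NK, natural killer cells). The summed naive CD4 T cell markers are the highest and overlap between groups, while 1 of the 7 genes rose and 3 fell. The summed regulatory T cell markers are higher in every KO library, with Foxp3 the only 1 of the 4 genes called. The summed myeloid markers spread most among WT libraries.

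Levels were compared between members per kilobase of the principal protein-coding transcript (RPKM). In WT the order was Irf1 (146 ± 11.6 RPKM), Irf3 (78.8 ± 2.88), Irf9 (72.2 ± 5.21), Irf7 (50.6 ± 7.48), Irf2 (39.3 ± 1.76), Irf8 (2.14 ± 0.437), Irf4 (1.37 ± 0.175) and Irf5 (0.746 ± 0.25; SD, n = 4 each). A wide step parted the first 5 members from the last 3, with Irf2 at 18.4 times the level of Irf8, the next member; per kilobase of all annotated exons Irf2 was at 9.98 times its next member, Irf4. The WT ranges of Irf3 and Irf9 overlapped, with Irf3 higher in 3 of 4 WT libraries. In KO the order was Irf1 (157 ± 6.51 RPKM), Irf9 (96.3 ± 3.01), Irf7 (90.3 ± 10.5), Irf3 (79.8 ± 6.4), Irf2 (41.3 ± 2.21), Irf4 (2.53 ± 0.283), Irf8 (1.87 ± 0.497) and Irf5 (0.913 ± 0.192). Irf9 and Irf7 overlapped there, as did Irf7 and Irf3, each above the next in 3 of 4 libraries. Irf9 (93.4 to 101 RPKM) and Irf3 (73.8 to 88.9 RPKM) did not overlap. Irf8 was above Irf4 in 4 of 4 WT libraries and Irf4 above Irf8 in 4 of 4 KO libraries, although the ranges of both genes overlapped in each group.

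The share of Irf7 in the summed RPKM of the 8 members was 12.9% in WT and 19.2% in KO, while that of Irf1 was 37.3% and 33.5%. The sum itself was 391 ± 20.7 RPKM in WT and 470.5 ± 14 RPKM in KO (SD, n = 4 each). The order of close neighbours depends on the length used. Per kilobase of all annotated exons, Irf3 led Irf7 and Irf9 in KO (47.1, 45.8 and 44 RPKM), and Irf4 was above Irf8 in WT as well (1.33 and 0.864 RPKM). By that length Irf3 was above Irf9 in 4 of 4 WT libraries with no overlap (46.5 and 33 RPKM).

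**Figure D4:**
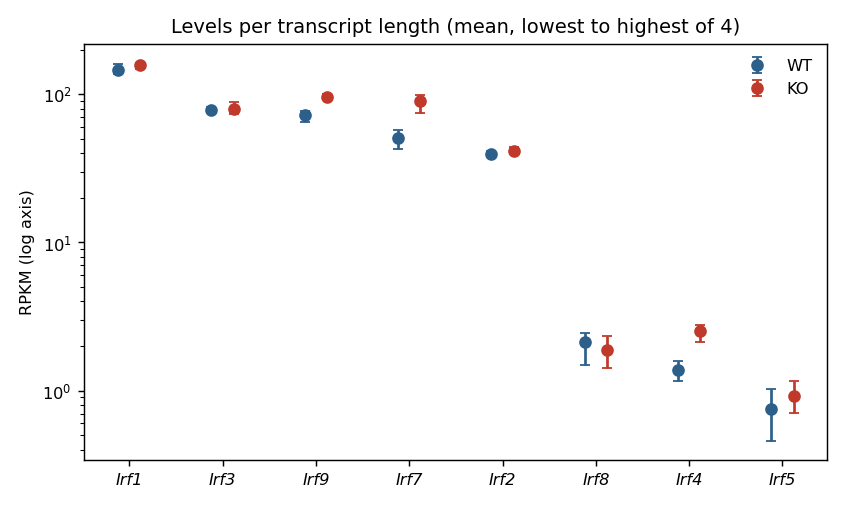
Level of each member in RPKM on a log vertical axis, in WT order from left to right; points are group means and bars run from the lowest to the highest of 4 libraries. A gap separates the upper 5 members from Irf8, Irf4 and Irf5, and the KO points of Irf9, Irf7 and Irf4 stand above their WT points.

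Ratios within a library, which do not depend on scaling between libraries, were compared for 3 pairs. The log2 ratio of Irf7 to Irf3 was -0.13, 0.29, 0.07 and 0.13 in the KO libraries and -0.49, -0.53, -1.0 and -0.93 in the WT libraries. It was higher in every KO library, by 0.82 on average (exact 2-sided permutation p = 0.0286, the smallest that 70 relabellings can give, and 0.0429 adjusted over the 3 ratios). The log2 ratio of Irf9 to Irf3 was 0.57, 0.72, 0.38 and 0.53 in KO and 0.32, 0.22, 0.10 and -0.05 in WT, again with no overlap, a difference of 0.40 (exact permutation p = 0.0286, adjusted p = 0.0429). Both ratios missed the threshold after adjustment (adjusted p = 0.0857 in the exact test) without Sample_2908_KO, Sample_2914_WT or Sample_2915_WT, at differences of 0.76, 0.74 and 0.76 for Irf7 to Irf3 and 0.35, 0.39 and 0.34 for Irf9 to Irf3. In these removals the unadjusted exact permutation p stayed at 0.0286 for Irf7 to Irf3 and was 0.0571 for Irf9 to Irf3. The ratio of the activator Irf1 to the antagonist Irf2 was 1.70 ± 0.13 in KO and 1.67 ± 0.14 in WT on the log2 scale (SD, n = 4 each; exact permutation p = 0.714).

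Interferon ligands were next to absent. Of 10 ligand genes 9 had 0 reads, among them Ifnb1 and Ifng, so that the pooled KO libraries allow a level of up to 0.0882 CPM and the pooled WT libraries up to 0.0671 CPM. Ifnk had 4 reads in KO and 3 in WT. No ligand could be tested.

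In the receptor arm, 8 receptor, kinase and STAT genes were tested (median log2 fold change 0.14). Of these 3 rose and 0 fell, a share of 37.5% beside 6.39% of all tested genes. They were Ifngr1, a chain of the interferon gamma receptor (308 ± 19.6 CPM in KO against 113 ± 14.8 CPM in WT, log2 fold change 1.46), Ifnar2, a chain of the type I receptor (73.3 ± 2.44 and 55.2 ± 3.98 CPM, 0.41, edgeR adjusted p = 0.000291), and Stat2 (172 ± 11.2 and 119.9 ± 10.8 CPM, 0.53, edgeR adjusted p = 1.23e-06; SD, n = 4 each). The other receptor chains, Ifnar1 and Ifngr2, had log2 fold changes of 0.09 and 0.02 (edgeR adjusted p = 0.385 and 0.935).

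Upstream of IRF3 and IRF7, 7 of 18 tested sensors, adaptors and kinases rose and 0 fell (median log2 fold change 0.08), and 4 more had too few reads. The called share was 38.9% beside 6.39% of all tested genes. Those that rose included Unc93b1, the chaperone of endosomal Toll-like receptors (log2 fold change 1.71), the RNA sensors Dhx58 (0.69) and Ifih1 (0.56), the nucleic acid sensor Zbp1 (0.48) and Tmem173, which encodes the adaptor STING (0.20). The remaining calls were Mb21d1, which encodes the DNA sensor cGAS (0.45, edgeR adjusted p = 0.0265), and Tlr7, an endosomal RNA sensor (0.51, edgeR adjusted p = 0.04). The kinases that phosphorylate IRF3 and IRF7, Tbk1 and Ikbke, had log2 fold changes of 0.04 and 0.01 (edgeR adjusted p = 0.799 and 0.975). Both kinase genes were picked for mention with their values known. The calls of Tlr7 and Mb21d1 ended with the removal of single libraries. For Tlr7 these were Sample_2908_KO, Sample_2909_KO and Sample_2910_KO and each WT library (adjusted p 0.0575 to 0.159), and its call was lost in 12 of 18 alternatives in all, DESeq2 among them (adjusted p = 0.0613). For Mb21d1 they were Sample_2907_KO and Sample_2910_KO and Sample_2913_WT, Sample_2914_WT and Sample_2915_WT (0.0508 to 0.141), and for Tmem173 Sample_2915_WT (0.12).

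Among 15 tested partner factors on DNA, 2 rose and 1 fell (median log2 fold change 0.05). The called share was 20% beside 6.39% of all tested genes. Nfkb1 rose (0.26, edgeR adjusted p = 0.0024), Ikzf3 rose (0.25, adjusted p = 0.00789) and Ikzf1, which encodes Ikaros, fell (-0.21, adjusted p = 0.00892). Spi1 and Spib, the ETS partners of IRF4 and IRF8 in B and myeloid cells, had 5 and 6 reads in KO and 2 and 3 in WT. Batf, the AP-1 partner of IRF4 in T cells, was at 28.6 ± 6.15 CPM in KO against 22.6 ± 3.22 CPM in WT (log2 fold change 0.38, edgeR adjusted p = 0.145). Bach2, which encodes a repressor that competes with AP-1 factors, fell (-0.23, edgeR adjusted p = 0.0107). The Ikzf3 call ended without Sample_2910_KO (adjusted p = 0.05 after rounding) or Sample_2915_WT (0.0518), and the Ikzf1 call without Sample_2911_WT and Sample_2914_WT together (0.0948).

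Of 20 corepressor and negative regulator genes 1 rose and 0 fell (median log2 fold change 0.01), a called share of 5% beside 6.39% of all tested genes. It was Usp18, an interferon-induced brake on the type I receptor, at 55.7 ± 10.1 CPM in KO against 30.4 ± 6.3 CPM in WT (mean ± SD, n = 4; log2 fold change 0.93, edgeR adjusted p = 0.00873). The IRF2 corepressor genes Irf2bp1, Irf2bp2 and Irf2bpl had log2 fold changes of -0.04, -0.12 and -0.10 (edgeR adjusted p = 0.912, 0.412 and 0.524).

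Downstream of the family, the 22 tested ISRE target genes of ISGF3 and IRF7 had a median log2 fold change of 1.30. The median over all tested genes was 0.00. Of the 22 genes 20 rose and 0 fell, a share of 90.9% beside 6.39% of all tested genes. Those with the lowest adjusted p were Rtp4 (log2 fold change 0.93), Oasl2 (1.39), Parp14 (0.47), Oas1a (1.43) and Xaf1 (0.62). The 2 members not called were Ifit2 (0.10, edgeR adjusted p = 0.473) and Ifit3 (1.73, adjusted p = 0.0534). The call of Rsad2, which encodes the antiviral enzyme viperin, ended without Sample_2911_WT, Sample_2914_WT or Sample_2915_WT (adjusted p = 0.0609, 0.0558 and 0.0537). With Sample_2911_WT and Sample_2914_WT left out together, the calls of Rsad2, Isg15, Isg20, Ifit1, Ddx60 and Eif2ak2 ended (edgeR adjusted p 0.052 to 0.189). The 24 tested IRF1 and interferon gamma targets had a median log2 fold change of 0.18. Of these 6 rose and 0 fell, a share of 25% beside 6.39% of all tested genes. These were the GTPase genes Gbp6 (0.80), Irgm1 (0.48), Gbp7 (0.35) and Gbp4 (0.28), together with Cd274 (0.29), which encodes PD-L1, and Nlrc5 (0.21), the activator of MHC class I genes. The calls of Gbp4 and Nlrc5 ended without Sample_2915_WT (edgeR adjusted p = 0.0553 and 0.0518). That of Cd274 ended without Sample_2908_KO or Sample_2910_KO or Sample_2913_WT or Sample_2914_WT (0.0626 to 0.176). It was also lost under DESeq2 (0.0553), both limma fits (0.0595 and 0.0719) and non-robust dispersion (0.0551), and in 9 of 18 alternatives in all. The difference between the lists was not tested, and both were drawn up with interferon responses of these samples known.

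The GAAA pair lay in at least 1 window of 10 of the 18 ISRE target genes with a RefSeq window (55.6%) and of 7 of 18 IRF1 target genes (38.9%), beside 3.46% of 27025 genes. Both lists were chosen for known control by IRFs, so these shares describe the lists.

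Of 17 tested genes linked to IRF4 and T cell receptor strength, 2 rose and 0 fell (median log2 fold change 0.08), a share of 11.8% beside 6.39% of all tested genes. They were Cd69, an early activation marker (110.3 ± 7.94 CPM in KO against 66.2 ± 5.14 CPM in WT, log2 fold change 0.73), and Ikzf3. Of the other genes induced early by the antigen receptor, named after their values were seen, none of the 6 tested was called. Nr4a3 was at 0.37 with no overlap between groups (edgeR adjusted p = 0.0979), Egr2 at 0.23 (0.424), Nr4a1 at 0.05 (0.907), Egr1 at -0.09 (0.649), Egr3 at -0.15 (0.45) and Myc at -0.15 (0.296). Prdm1, a target of IRF4, was likewise not called (log2 fold change 0.03, edgeR adjusted p = 0.953).

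**Figure D5:**
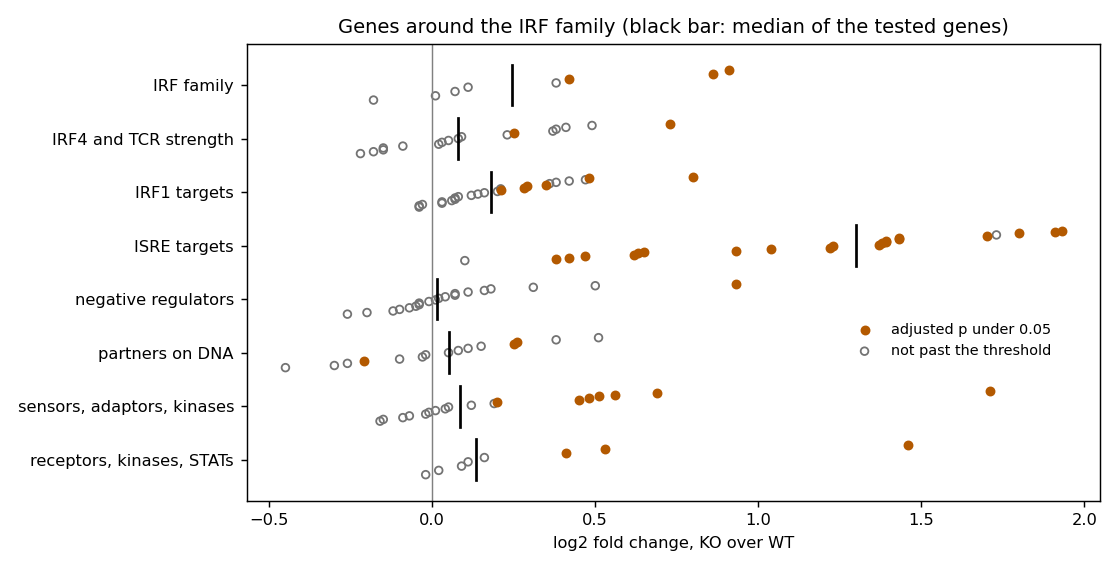
Log2 fold change of KO over WT (horizontal axis) for the tested genes of each list around the family, 1 point per gene; filled points passed the edgeR threshold and black bars are medians. ISRE targets have the highest median (1.30), and negative regulators the lowest (0.01).

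The genes whose levels ran most like each risen member were taken by Pearson r of log2 CPM over the 8 libraries, among 9542 other genes averaging 5 CPM or more. For Irf7 they were Oas3 (r = 0.988), Dhx58 (0.985) and Oasl1 (0.982), with r of 0.92, 0.93 and 0.88 after the group means were taken out. For Irf9 they were Cmpk2 (0.991), Parp14 (0.986) and Nlrc5 (0.982), with 0.93, 0.87 and 0.87 after the group means were taken out. For Irf4 they were Tmem64 (0.987), Rgs1 (0.987), a G protein signalling regulator, and Oas1b (0.986), with 0.91, 0.87 and 0.87. These are the highest of many values over libraries that share their depth and scaling between genes, and they are given as a description.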

How the data were processed

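Poly(A) RNA of 8 libraries (4 KO, 4 WT) was read as single reads of 75 bp from an unstranded TruSeq kit, per the labels' protocols. Per the submitters' processing notes, CASAVA 1.8.2, FastQC, R 3.5.3, DESeq2 1.22.2 and build mm10 were used. Which aligner, counter and annotation served is not given in the sources used here. One deposited table gives raw read counts of 53465 genes. The deposited normalized signal table holds the 16418 genes with at least 10 reads in all. Multiplied by 1 size factor per library, 100% of its values came out whole (within 0.01 reads) and equal to the counts, and edgeR on them called 752 genes, the number called on the count table. Positions and lengths came from GENCODE M21 (GRCm38, the assembly of mm10) and promoter windows from RefSeq (GRCm38.p6), which matched 8 of 8 members.

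The test was run in edgeR 4.0.16 under R 4.3.3 (TMM, filterByExpr, robust quasi-likelihood F test, Benjamini-Hochberg over 11772 genes, called under 0.05). Each standard error is the size of the log2 fold change divided by √F, and intervals use the degrees of freedom of F. Log2 ratios used 0.5 added reads, and log2 CPM a prior count of 2. Intervals and floors cover counting error or the spread between libraries only. Pairs of libraries within a group differed beyond sampling noise (chi-square per gene 2.67 to 11.26). Only the edgeR fit was tried on simulated counts, drawn with dispersions fitted to these data, and the other steps were not.

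Some genes of the lists and marker sets are not reported here and were left out of their counts, medians and sums. The members and lists were chosen with earlier results of these data known. Named genes are all members, up to 5 called genes of lowest adjusted p in each list, genes needed to say how a list moved, a fixed panel of pathway genes, and the 3 genes most like each called member. Alternatives were DESeq2 1.42.0, limma 3.58.1 (voom with sample weights, and a trend fit on log2 of the normalized values plus 1), RLE or no scaling factors, no filter, 1 CPM in 4 samples, non-robust dispersion, thinning to 5227758 reads, and leaving out each library or Sample_2911_WT and Sample_2914_WT together. The fit on recovered reads was added after seeing the data.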

Additional observations from a re-analysis of the deposited data

Results flagged for a closer look

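Irf8 in Sample_2915_WT, at 4.24 CPM, stood apart from Sample_2911_WT, Sample_2913_WT and Sample_2914_WT (6.56, 6.67 and 6.91 CPM), with a gap of 0.870 of the group's range. It was the single value set apart among 22 groups of 4 examined, for 8 members and 3 ratios in KO and WT, where chance sets apart about 5% of groups. Sample_2915_WT held 49 Irf8 reads. Without it the Irf8 log2 fold change was -0.34 (edgeR adjusted p = 0.551).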

How the results depend on the processing

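Irf4, Irf7 and Irf9 stayed called in 19 of 19 alternatives, at log2 fold changes of 0.83 to 0.98, 0.77 to 0.93 and 0.37 to 0.47, with the highest adjusted p at 0.0139, 0.0163 and 0.000226. No other member was called in any of them. The fit on recovered reads, 1 of these 19, repeats the counts of the main fit and is no separate check. The direction of Irf3 turned with library size only (-0.0003), with thinning (-0.0045), without Sample_2911_WT and Sample_2914_WT together (-0.0009), and in single-library removals, which spanned -0.05 to 0.05. That of Irf8 turned without Sample_2911_WT and Sample_2914_WT (0.02), and the cause was not tested. Leaving out that pair gave 481 called genes over the table against 752, with 6 samples in the fit, and 30 against 41 called list genes. Of those 41 genes 27 kept their call in all 18 alternatives other than the recovered reads. Irf5 fell under the filter with thinning, which gave it no value. The Irf7 to Irf3 and Irf9 to Irf3 differences spanned 0.74 to 0.91 and 0.34 to 0.46 without single libraries, with adjusted p of 0.0429 or 0.0857 (exact permutation test over 35 relabellings). Depth limits Irf5, Irf8 and Irf4, with 8 to 24, 31 to 155 and 33 to 148 reads per library. No paired analysis was possible because the groups share no replicate numbers.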
